A study of Rattus norvegicus with 100 samples.

Results

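The genes described here are 10 rat genes of the acute phase response and of inflammatory signalling in liver. They are the transcription factor genes Cebpd, Cebpb and Stat3, the signalling inhibitor Socs3, the adhesion receptor gene Icam1, and the genes of the secreted proteins A2m, Lbp, Crp, Orm1 and Hp. They were taken from a list of names that was chosen with earlier results of these data known. Each was read at the probe set that carries only its symbol and has the highest mean over all arrays. All 10 had such a probe set, among 13439 genes in all, and 9 of them were among the 8843 genes tested. Socs3 was not tested, because it did not pass the filter on low values.

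Primary rat hepatocytes, that is liver cells taken from an animal and cultured without transformation, were exposed to GW7647, a synthetic agonist of the nuclear receptor PPARα. The groups were cultures with 0, 0.001, 0.01, 0.1, 1 or 10 µM GW7647, each collected after 2, 6, 12, 24 or 72 h of exposure, so that there were 30 groups. The labels name 4 biological replicates, Rs627, Rs628, Rs631 and Rs632, read here as the cells of 4 rats, whose strain, age and sex are not given in the sources used here, and each group held 2 to 4 cultures of different rats, 100 in all with 1 array each. All cultures shared the collagen IV coating, the Geltrex overlay and the supplemented William E medium. The labels name no cytokine or other inflammatory stimulus, and the vehicle of the 0 µM cultures is not given in the sources used here. Values are log2 intensities, so a difference of 1 is a 2-fold difference. A gene is called in a comparison where its adjusted p in limma's moderated test across all genes is under 0.05 (Benjamini-Hochberg), two-sided, and a change is always the treated cultures minus the 0 µM cultures of the same time.

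When tissue is injured or infected, cytokines of the interleukin-6 and interleukin-1 families act on hepatocytes. Interleukin-6 signals through the receptor subunit gp130 and JAK kinases to STAT3, which drives the genes of C/EBPδ and of many plasma proteins, and SOCS3 is induced by the same route and shuts it down. Interleukin-1 and bacterial products act through NF-κB, of which Icam1 is a well known target. C/EBPβ and C/EBPδ bind the promoters of many acute phase genes. PPARα, the main regulator of fatty acid oxidation in liver, is also known as a receptor that restrains such inflammatory transcription.

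Letters of this kind can be read in the promoter windows of the RefSeq table for GRCr8, which held 6 of the 10 genes (Cebpb, Stat3, Icam1, Crp, Orm1 and Socs3). The 250 bases before each transcript start were searched on both strands for a STAT motif (TTCNNNGAA), an NF-κB motif (GGNNNTTCC) and a C/EBP motif (TTGCNNAA). The STAT motif was found in 1 of the 6 windows (Icam1) and in 7.67% of all 33469 windows. The NF-κB motif was found in 3 of the 6 (Icam1, Stat3 and Orm1) and in 15.4% of all, and the C/EBP motif in 1 of the 6 (Orm1) and in 9.22% of all. No match in these genes overlapped a match of another motif. Icam1 is shown because it had both a STAT match and NF-κB matches and was among the most lowered genes, and Orm1 because it held the C/EBP match and hardly moved. The motif is in capitals, each sequence runs 5′ to 3′ on the plus strand, and the windows are chr8:27829616-27829645 and chr8:27829727-27829756 for Icam1 and chr5:81788360-81788419 for Orm1.
Icam1, NF-κB match: tacttcagtttGGAAATTCCtgggtcgcag
Icam1, STAT match: aggcgcgaggtTTCCGGGAAagtggcccca
Orm1, C/EBP match on the opposite strand: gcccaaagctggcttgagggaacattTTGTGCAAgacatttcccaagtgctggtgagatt
The NF-κB match of Icam1 shown starts 218 bases before the transcript start of the table and its STAT match 107 bases before it, and the C/EBP match of Orm1 starts 123 bases before it. Icam1 had a further NF-κB match, not shown, that starts 149 bases before its transcript start. The RefSeq gene record of Icam1 begins before the start used in the table, so its STAT match and the NF-κB match not shown may lie within a longer transcript. A match describes the letters only, and binding was not measured.

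Before the values, some properties of the arrays bear on them. The 12 h arrays with 0 µM labelled Rs627 and Rs628 each resembled the other rat: their mean correlation with the rest of the rat on their label was -0.02 and -0.21, against 0.76 and 0.51 with the other. Group means are not touched by such an exchange, but rat differences at 12 h are. In addition, 5 arrays had a low 75th percentile of intensity (under 6.6, over a range of 6.42 to 7.27 in all arrays): Rs631 with 0.1 µM at 2 h, Rs627 with 10 µM at 6 h, Rs631 with 10 µM at 24 h, and Rs631 and Rs632 with 1 µM at 24 h. The median change of all tested genes was -0.23 with 1 µM and -0.12 with 10 µM at 24 h, and -0.06 and -0.04 at 72 h. Known PPARα targets rose in these cultures: Acot1, Ehhadh, Cpt1a, Pdk4 and Angptl4 were all called higher with 10 µM at 72 h, with Ehhadh, an enzyme of peroxisomal fatty acid oxidation, 30.2-fold higher. Albumin was between 13.61 and 13.81 in all 100 arrays. This is the top of the scale, whose highest value was 13.81, so changes of albumin may be hard to see.

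Among the 9 tested genes the response was mixed in direction. Cebpd, Icam1, Lbp and Stat3 were lower with 1 and 10 µM by 72 h, Cebpb was higher at 2, 24 and 72 h with both, and Hp did not pass the test at any time or concentration. The falls at 10 µM and 72 h ran from 1.53-fold for Stat3 to 3.53-fold for Icam1 and at least 4.27-fold for Cebpd, and Cebpb was 2.05-fold higher. A2m was lower in every rat measured at 72 h with 1 and 10 µM, but with all rats kept passed the test only when the rat was in the model as a block, that is when each rat was given its own level. The plot of changes by time and concentration shows all 9 genes.

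**Figure D1:**
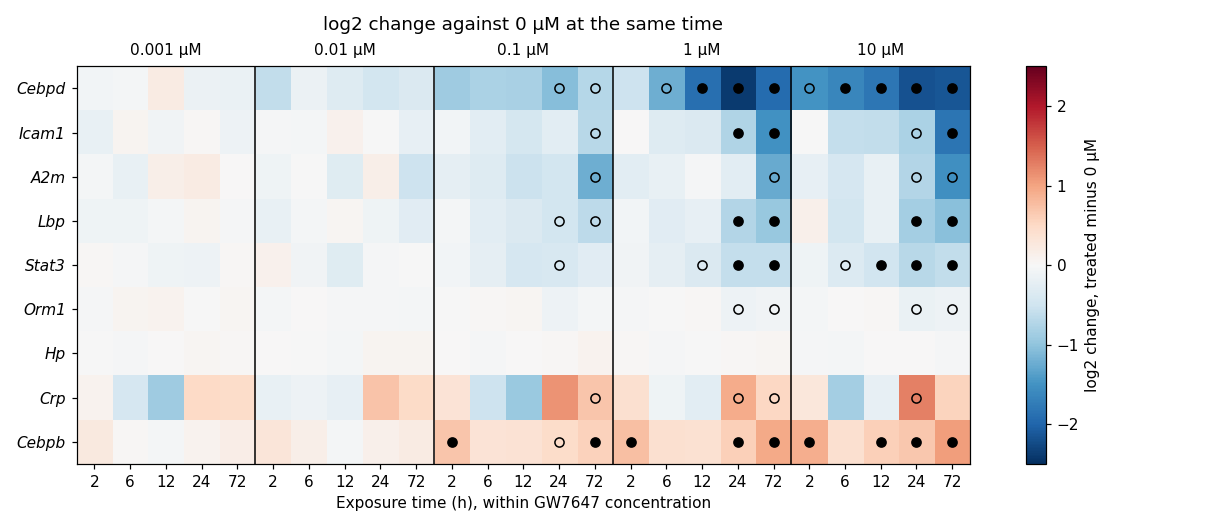
Log2 change against 0 µM at the same time (colour, blue lower, red higher) of the 9 tested genes (rows) in each concentration and exposure time (columns, h). A filled dot marks an adjusted p under 0.05 in limma's fit without the rat and an open ring one that passed only with the rat as a block; the calls lie at 0.1 µM and above, and Cebpb alone has filled dots on rises.

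Cebpd encodes C/EBPδ, a factor that is scarce in resting liver and rises early in inflammation. At 72 h it was 5.43, 5.04 and 4.89 in the 10 µM cultures of Rs628, Rs631 and Rs632. It was 4.38, 5.88, 5.53 and 5.55 in the 1 µM cultures of Rs627, Rs628, Rs631 and Rs632, against 6.70, 7.14, 7.78 and 7.39 in their 0 µM cultures. Every culture with 1 or 10 µM lay below every 0 µM culture, and some reached the floor of 5, under which levels were not ordered. The change was -2.13 ± 0.51 (SE) with 10 µM, at least 4.27-fold (adjusted p = 0.00068, limma), and -1.92 ± 0.47 with 1 µM, at least 3.39-fold (adjusted p = 0.0011). The bounds set values under 5 to 5.

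The fall of Cebpd was present earlier. At 24 h it was 5.68, 4.78 and 5.02 with 10 µM in Rs628, Rs631 and Rs632, and 4.94, 5.77, 5.32 and 3.73 with 1 µM in the 4 rats in the order of their numbers. The 0 µM cultures of Rs627, Rs631 and Rs632 had 6.72, 8.03 and 7.24, above all those with 1 or 10 µM. The change was at least 4.27-fold with 10 µM (-2.17, adjusted p = 0.0022, limma) and at least 4.16-fold with 1 µM (-2.39, adjusted p = 0.00023). With 10 µM the call was lost without Rs631 (-1.63, adjusted p = 0.091) and without Rs632 (-2.15, adjusted p = 0.067), and with 1 µM it held without any rat. At 12 h the change was -1.80 with 10 µM (adjusted p = 0.024) and -1.88 with 1 µM (adjusted p = 0.012), and without Rs632 these were -1.42 (adjusted p = 0.32) and -1.47 (adjusted p = 0.23). Without Rs631 they were -1.70 (adjusted p = 0.13) and -1.81 (adjusted p = 0.070), and without the arrays at repeated plate positions -1.46 (adjusted p = 0.086) and -1.13 (adjusted p = 0.26). Without the 0 µM arrays of Rs627 and Rs628 the 10 µM value was -2.49 (adjusted p = 0.063).

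At 6 h the mean with 10 µM was 6.32 ± 1.63 (SD, n = 3) against 7.95 ± 0.53 with 0 µM (SD, n = 4), a change of -1.63 (adjusted p = 0.048, limma). This call rested on Rs627, whose 10 µM array had a low signal and read 4.49, while Rs631 and Rs632 had 7.63 and 6.84: without Rs627 the change was -0.93 (adjusted p = 1.00). The call was also lost without Rs628 (adjusted p = 0.087) and without Rs632 (adjusted p = 0.11). With 1 µM at 6 h Cebpd passed only when the rat was a block (-1.22, adjusted p = 0.012, against 0.30 without), as it did with 10 µM at 2 h (-1.55, adjusted p = 0.0036, against 0.22 without). With 0.1 µM the model with the rat called it lower at 24 h (-1.12, adjusted p = 0.034) and 72 h (-0.93, adjusted p = 0.041), and the model without the rat at neither time (adjusted p = 0.38 and 0.40). The change at 72 h minus that at 2 h was -0.63 ± 0.72 with 10 µM and -1.40 ± 0.72 with 1 µM, neither past the threshold (adjusted p = 0.63 and 0.26).

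Cebpb encodes C/EBPβ, which shares its binding motif with C/EBPδ. At 72 h it was 11.09, 10.91 and 11.46 with 10 µM in Rs628, Rs631 and Rs632. It was 11.18, 10.87, 10.85 and 11.36 with 1 µM in the 4 rats, and 10.64, 10.45 and 10.98 with 0.1 µM in Rs628, Rs631 and Rs632, against 10.00, 9.97, 10.22 and 10.28 with 0 µM in the 4 rats. All cultures with 0.1, 1 or 10 µM were above all 0 µM cultures. The rise was 1.04 ± 0.16 with 10 µM (2.05-fold, adjusted p = 2.04e-07, limma), 0.95 ± 0.15 with 1 µM (1.93-fold, adjusted p = 3.38e-07) and 0.57 ± 0.16 with 0.1 µM (1.49-fold, adjusted p = 0.013). The 0.1 µM call was lost without Rs632 (0.48, adjusted p = 0.14) and without Rs627 (0.53, adjusted p = 0.075).

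At 2 h Cebpb was the only one of the 9 genes called in the model without the rat. It was 10.94, 10.65, 11.09 and 11.57 with 10 µM in the 4 rats and 10.93, 10.84 and 10.98 with 1 µM in Rs628, Rs631 and Rs632. The 0 µM cultures of Rs627, Rs631 and Rs632 had 10.36, 10.14 and 9.97, below every culture with 1 or 10 µM. The rises were 1.87-fold with 10 µM (adjusted p = 0.00018, limma) and 1.69-fold with 1 µM (adjusted p = 0.011). Without Rs632 they were 0.64 (adjusted p = 0.15) and 0.63 (adjusted p = 0.48) on the log2 scale, and the 1 µM call was lost without Rs631 as well (adjusted p = 0.30). Fitting the 2 h arrays alone ended every 2 h call of Cebpb (adjusted p = 0.054 with 10 µM and 0.30 with 1 µM). At 6 h Cebpb was called in neither model: the change was 0.40 ± 0.16 with 10 µM (adjusted p = 0.13, blocked 0.080) and 0.39 ± 0.15 with 1 µM (adjusted p = 0.26, blocked 0.090). At 24 h the rises were 0.66 with 10 µM (adjusted p = 0.0027) and 0.59 with 1 µM (adjusted p = 0.0035), and these too were lost without 1 rat, Rs632 for 10 µM (0.51, adjusted p = 0.096) and Rs631 for 1 µM (0.55, adjusted p = 0.060). With 10 µM at 12 h the rise was 0.59 (adjusted p = 0.017), and with 0.1 µM at 2 h 0.70 (adjusted p = 0.022). Both were lost without Rs627, Rs631 or Rs632 (adjusted p from 0.096 to 0.48), and the 12 h call also without the 0 µM arrays of Rs627 and Rs628 (0.69, adjusted p = 0.12). Without Rs628 the 12 h value was 0.90 (adjusted p = 0.00056), though the 0 µM array with that label resembled Rs627. Arrays of single times alone ended both calls (adjusted p = 0.080 and 0.57) and the 72 h call with 0.1 µM (adjusted p = 0.065). Only the model with the rat called the rise with 0.1 µM at 24 h (0.52, adjusted p = 0.019). The changes at 72 and 2 h did not differ past the threshold with 10 µM (0.14 ± 0.22, adjusted p = 0.75). The plot of Cebpd and Cebpb over time shows both genes side by side.

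**Figure D2:**
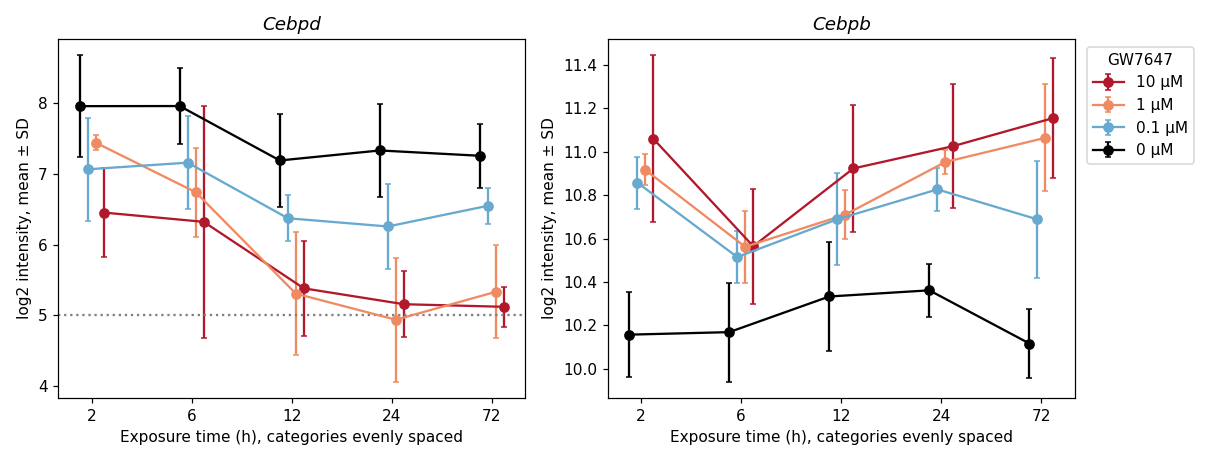
Mean ± SD log2 intensity (y) of Cebpd and Cebpb over exposure time (x, h, evenly spaced categories) with 10, 1, 0.1 and 0 µM GW7647, 2 to 4 cultures per point, and a dotted line at the floor of 5. At 72 h Cebpd lies near the floor with 10 and 1 µM, while Cebpb is above its 0 µM level with 10, 1 and 0.1 µM.

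Stat3 encodes the factor that carries the interleukin-6 signal. It was 9.07, 8.92 and 9.08 at 72 h with 10 µM in Rs628, Rs631 and Rs632. It was 9.05, 9.35, 8.97 and 8.78 with 1 µM in the 4 rats, against 9.74, 9.63, 9.60 and 9.59 with 0 µM. The groups did not overlap, and the fall was the smallest of the 4 called at 72 h: 1.53-fold with 10 µM (-0.62 ± 0.14, adjusted p = 0.00048, limma) and 1.52-fold with 1 µM (-0.60 ± 0.13, adjusted p = 0.00025). At 24 h the changes were -0.69 with 10 µM (adjusted p = 0.00051) and -0.59 with 1 µM (adjusted p = 0.0011), and at 12 h -0.48 with 10 µM (adjusted p = 0.035). The 24 and 72 h calls held without any 1 rat, and the 12 h call was lost without each of the 4 (adjusted p from 0.064 to 0.18) and at the second probe set of Stat3 (-0.34, adjusted p = 0.43). It was also lost without the 0 µM arrays of Rs627 and Rs628 (-0.36, adjusted p = 0.62). In the blocked model Stat3 was also lower with 1 µM at 12 h (adjusted p = 0.011), with 10 µM at 6 h (adjusted p = 0.044) and with 0.1 µM at 24 h (adjusted p = 0.020). The 12 h value uses the doubtful rat labels of the 0 µM arrays of Rs627 and Rs628. Socs3, which encodes an inhibitor of the receptor that activates STAT3, read between 2.78 and 3.91 in the 100 arrays, under the floor in all of them, so no change could be seen at this probe set.

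Icam1 encodes a surface receptor for leukocyte integrins. It was 6.82, 6.01 and 5.96 at 72 h with 10 µM in Rs628, Rs631 and Rs632, and 6.54, 7.35, 6.15 and 6.23 with 1 µM in the 4 rats. With 0 µM it was 8.10, 8.60, 7.83 and 7.82 in the 4 rats, above all cultures with 1 or 10 µM. The fall was 3.53-fold with 10 µM (-1.82 ± 0.30, adjusted p = 9.99e-07, limma) and 2.86-fold with 1 µM (-1.52 ± 0.28, adjusted p = 1.01e-05). Within rats the 10 µM differences lay close together, from -1.86 to -1.77. In these bulk cultures fewer cells of a type and less RNA per cell cannot be told apart.

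The change of Icam1 was larger at 72 h than at 2 h. At 2 h Icam1 was 7.91 ± 0.55 with 10 µM (SD, n = 4) and 7.92 ± 0.13 with 0 µM (SD, n = 3), a difference of -0.01. The 0 µM group held no Rs628, which had 8.71 with 10 µM. Rs627, Rs631 and Rs632 had 7.75, 7.47 and 7.71 with 10 µM, each below its own 0 µM culture (7.97, 7.78 and 8.02). The difference of -0.01 thus mixes rats, and so do the values below that use the 2 h means. The change at 72 h minus that at 2 h was -1.81 ± 0.42 with 10 µM (adjusted p = 0.0012, limma) and -1.53 ± 0.42 with 1 µM (adjusted p = 0.011). Without the arrays at repeated plate positions the 10 µM value was -1.35 (adjusted p = 0.052), and the 1 µM call was lost without Rs627, Rs631 or Rs632 (values from -1.58 to -1.54, adjusted p from 0.070 to 0.11). After 24 h the change of Icam1 was -0.75 with 1 µM (adjusted p = 0.047), where 2 of the 4 arrays had a low signal: without all low-signal arrays it was -0.38 (adjusted p = 0.52), so this call depended on them. It was also lost without Rs627, Rs631 or Rs632 (adjusted p from 0.13 to 0.39). With 10 µM at 24 h it passed only in the blocked model (-0.92, adjusted p = 0.00026, against 0.076 without) or without Rs628 (-1.16, adjusted p = 0.00020). With 0.1 µM at 72 h it passed only in the blocked model (-0.68, adjusted p = 0.0057).

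Lbp encodes lipopolysaccharide-binding protein, which passes bacterial lipopolysaccharide on to CD14. It was 7.78, 7.40 and 7.28 at 72 h with 10 µM in Rs628, Rs631 and Rs632. It was 7.51, 8.22, 7.29 and 7.33 with 1 µM in the 4 rats, against 8.41, 8.91, 8.28 and 8.50 with 0 µM. All cultures with 1 or 10 µM lay below all 0 µM cultures. The fall was 2.06-fold with 10 µM (-1.04 ± 0.27, adjusted p = 0.0015, limma) and 1.92-fold with 1 µM (-0.94 ± 0.25, adjusted p = 0.0023). Without Rs632 both calls were lost, at -0.95 (adjusted p = 0.083) and -0.86 (adjusted p = 0.073). At 24 h the changes were -0.86 with 10 µM (adjusted p = 0.026) and -0.74 with 1 µM (adjusted p = 0.029), and without the low-signal arrays -0.53 (adjusted p = 0.25) and -0.47 (adjusted p = 0.32). Leaving out Rs627, Rs631 or Rs632 also ended both 24 h calls (adjusted p from 0.059 to 0.29). The change at 72 h minus that at 2 h was -1.16 ± 0.38 with 10 µM (adjusted p = 0.026). Omitting Rs627 (-1.28, adjusted p = 0.088) or Rs632 (-1.26, adjusted p = 0.17) ended this call, as did omitting the arrays at repeated positions (-0.96, adjusted p = 0.16) or those whose label ends in 2 (-0.95, adjusted p = 0.18). With 0.1 µM Lbp passed only with the rat as a block, at 24 h (-0.59, adjusted p = 0.0035) and 72 h (-0.65, adjusted p = 0.00023).

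**Figure D3:**
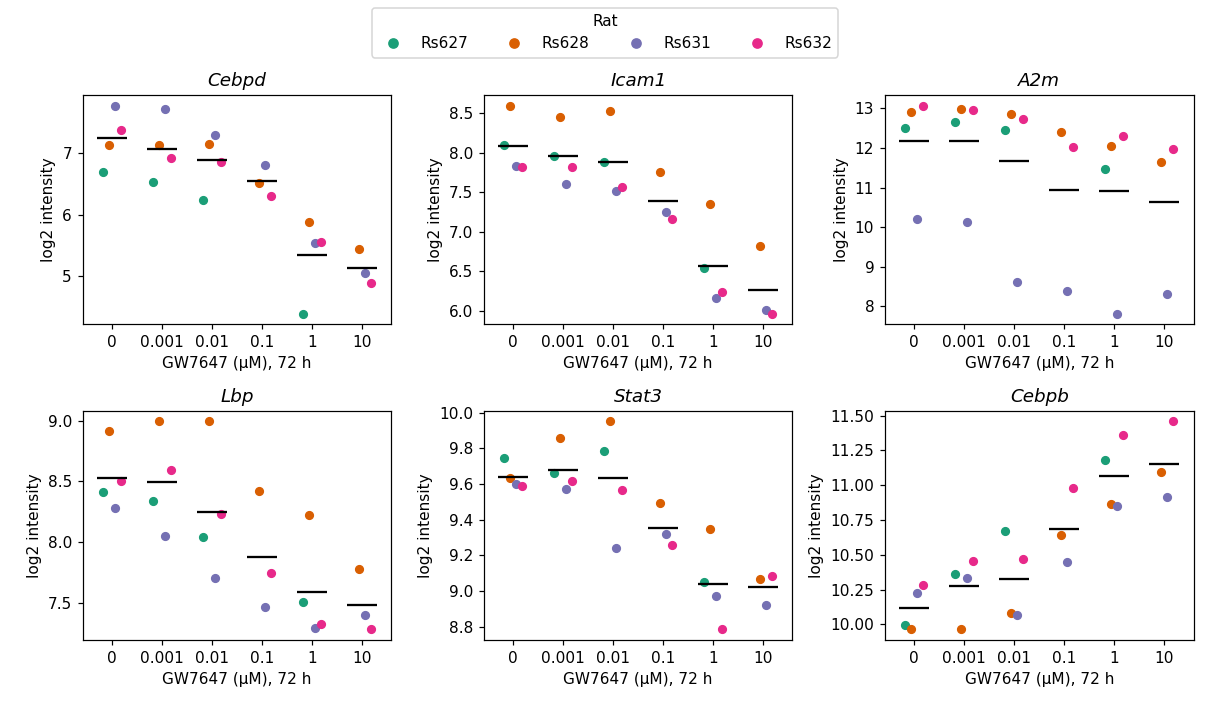
Log2 intensity (y) in each culture at 72 h, by GW7647 concentration (x, µM) and rat (colour), with the group mean as a bar, for 6 of the genes. In the 1 and 10 µM cultures Cebpd, Icam1, Lbp and Stat3 lie below and Cebpb above all 0 µM cultures, and A2m splits by rat. The share of all genes that separate in this way is not given here.

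A2m encodes α2-macroglobulin, a protease inhibitor that is a major positive acute phase protein in the rat. It differed more between rats than between concentrations. Over all conditions Rs631 had 7.81 to 11.45 (median 10.45, 30 arrays), and the other rats ranged from 11.47 to 13.09, so Rs631 did not overlap them. At 72 h A2m was 11.64, 8.32 and 11.98 with 10 µM in Rs628, Rs631 and Rs632, and 11.47, 12.04, 7.81 and 12.29 with 1 µM in the 4 rats. With 0 µM it was 12.50, 12.91, 10.21 and 13.07, higher in each rat than in its own cultures with 1 or 10 µM. Within rats the change was -1.89 to -1.08 with 10 µM (3 of 3 rats lower) and -2.40 to -0.77 with 1 µM (4 of 4 rats lower).

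The fit without the rat gave -1.52 ± 1.04 with 10 µM (adjusted p = 0.30, limma) and -1.27 ± 0.97 with 1 µM (adjusted p = 0.36). The blocked values were -1.43 ± 0.32 (adjusted p = 0.00015) and -1.27 ± 0.29 (adjusted p = 0.00029). Leaving out Rs631, without a block, gave -1.01 (adjusted p = 0.0022) and -0.89 (adjusted p = 0.0026). In the blocked model A2m was also lower with 0.1 µM at 72 h (-1.13, adjusted p = 0.0054) and 10 µM at 24 h (-0.87, adjusted p = 0.041). The plot of A2m by rat shows the gap of Rs631 at every time.

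**Figure D4:**
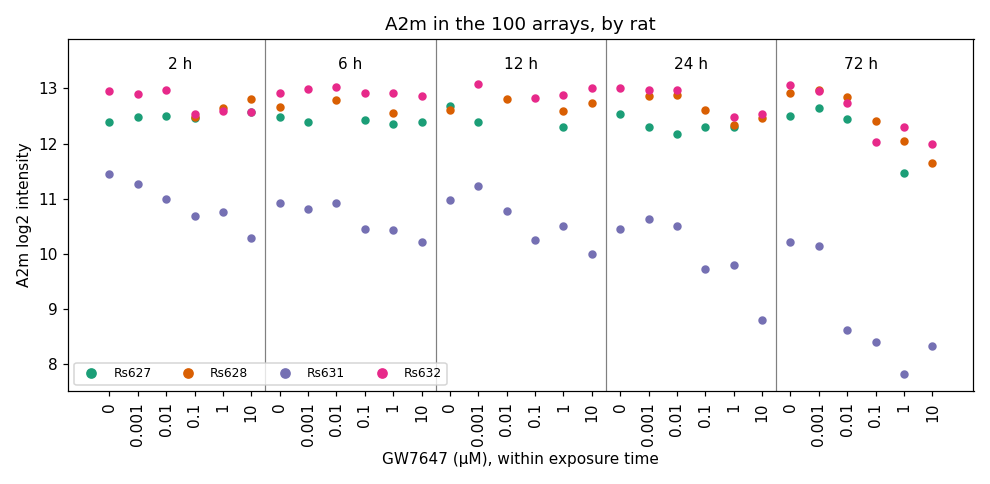
A2m log2 intensity (y) in all 100 arrays, by exposure time and GW7647 concentration (x, µM) and by rat (colour). Rs631 lies at 7.81 to 11.45, under all arrays of the other rats, and within each rat the 72 h cultures with 1 and 10 µM lie below the 0 µM culture.

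Crp encodes C-reactive protein, which in the rat is an abundant plasma protein in health and responds only modestly to inflammation. It was 11.07, 10.39 and 9.72 at 24 h with 10 µM in Rs628, Rs631 and Rs632, and 9.42, 11.09, 9.80 and 9.95 with 1 µM in the 4 rats. The 0 µM cultures of Rs627, Rs631 and Rs632 had 9.27, 9.57 and 8.56, so the 1 µM group overlapped them and the 10 µM group did not. The change of 1.26 ± 0.56 with 10 µM and of 0.93 ± 0.53 with 1 µM did not pass the test (adjusted p = 0.12 and 0.17, limma). The blocked values were 0.92 ± 0.23 (adjusted p = 0.0011) and 0.64 ± 0.22 (adjusted p = 0.012), higher. Crp was also higher with the block at 72 h with 1 µM (0.52, adjusted p = 0.029) and 0.1 µM (0.65, adjusted p = 0.019), and not with 10 µM (0.51, adjusted p = 0.051). Rats differed here too, with medians from 8.57 in Rs632 to 10.49 in Rs628.

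Orm1, the gene of α1-acid glycoprotein, and Hp, that of the haemoglobin-binding haptoglobin, were near the top of the scale, whose highest value in the table was 13.81. Orm1 lay between 12.92 and 13.40 and Hp between 13.08 and 13.33. Orm1 was 13.05, 12.92 and 13.14 at 72 h with 10 µM in Rs628, Rs631 and Rs632, against 13.15, 13.09, 13.13 and 13.27 with 0 µM in the 4 rats. The groups overlapped, and the change of -0.12 ± 0.07 did not pass the test (adjusted p = 0.19, limma) but did in the blocked model (-0.12 ± 0.04, adjusted p = 0.012). Orm1 also passed with the block only with 1 µM at 72 h (-0.10, adjusted p = 0.036), and at 24 h with 10 µM (-0.15, adjusted p = 0.0068) and 1 µM (-0.10, adjusted p = 0.034). Hp averaged 13.12 ± 0.02 with 10 µM (SD, n = 3) and 13.15 ± 0.03 with 0 µM (SD, n = 4) at 72 h, a change of -0.03 ± 0.04 (adjusted p = 0.62), and was called in neither fit at any time or concentration.

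Counts over the 9 tested genes are read against the share of all 8843 genes called in the same direction. The 9 were chosen with earlier results of these data known, so the counts describe them and do not test for an excess. For groups that do not overlap no such share is given, so the lack of overlap describes single genes only. With 0.001 µM none of the 9 was called at any time (limma, also none at an unadjusted p under 0.05), and 0% of all genes were called at 2, 6, 12, 24 and 72 h. With 0.01 µM none of the 9 was called either, again with none at an unadjusted p under 0.05, and the share of all genes in either direction was 0.0113% (2 h), 0% (6 h), 0.0339% (12 h), 0.136% (24 h) and 0.418% (72 h). With 0.1 µM none of the 9 was lower. The share of all genes lower was 0.0452% at 2 h, then 0.0339% (6 h), 0.0792% (12 h), 1.36% (24 h) and 4.82% (72 h). Cebpb was higher at 2 h (0.147% of all genes higher) and at 72 h (4% of all). At an unadjusted p under 0.05 the number in either direction with 0.1 µM was 1, 1, 1, 2 and 4 over the times. In the blocked model the number lower with 0.1 µM was 3 at 24 h, beside 6.46% of all genes in that model, and 4 at 72 h, beside 17%. Cebpb was then the 1 higher at 24 h (6.47% of all), and Cebpb and Crp were higher at 72 h (8.36%).

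With 1 µM the number of the 9 that was lower was 0 at 2 h (0.0226% of all genes lower), 0 at 6 h (0.305%), 1 at 12 h (1.45%) and 4 both at 24 h (22.6%) and at 72 h (15.5%). Cebpb was the 1 higher at 2 h (0.351% of all genes higher), 24 h (7.06%) and 72 h (11.3%). At an unadjusted p under 0.05 the number in either direction was 1 at 2 h and 2 at 6 h. With 10 µM the number lower was 0 at 2 h (0.52% of all), 1 at 6 h (2.74%) and 2 at 12 h (2.4%). It was 3 at 24 h (10.7%) and 4 at 72 h (15.6%). Cebpb was again the 1 higher, at 2 h (0.498% of all higher), 12 h (5.55%), 24 h (6.43%) and 72 h (12.5%). With 10 µM the blocked model called 1 of the 9 lower at 2 h (1.5% of all genes lower in that model), 2 at 6 h (11.6%), and 6 at both 24 h (23.1%) and 72 h (24%). With 1 µM it called 1 lower at 6 h (1.75%) and 2 at 12 h (4.26%), then 5 at 24 h (38.4%) and 6 at 72 h (24%). Crp joined Cebpb among the higher genes at 24 h with 10 µM (11% of all) and at 24 h (11.4%) and 72 h (16.3%) with 1 µM. The median change of the 9 at 72 h was -0.62 with 10 µM and -0.60 with 1 µM, beside -0.04 and -0.06 over all genes.

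Averaged over the 5 times, none of the 9 was called with 0.001 µM (0% of all genes) or 0.01 µM (0.69% of all in either direction), with 0 and 1 of the 9 at an unadjusted p under 0.05 (limma). With 0.1 µM Cebpd, Stat3 and Lbp were lower, 3 of 9 beside 7.94% of all genes, and Cebpb was higher (6.34% of all). With 1 µM and with 10 µM these 3 and Icam1 were lower, 4 of 9 beside 23.6% and 27.7% of all genes, and Cebpb was higher (11.7% of all in each). The largest mean fall with 0.1 µM was that of Cebpd, -0.86 ± 0.24 (adjusted p = 0.0085), lost without Rs631 (-0.75, adjusted p = 0.090) and without Rs632 (-0.80, adjusted p = 0.14). Lbp with 0.1 µM was lost without Rs627 (-0.28, adjusted p = 0.40), Rs631 (-0.35, adjusted p = 0.056) or Rs632 (-0.34, adjusted p = 0.31), and Stat3 without Rs627 (-0.27, adjusted p = 0.058) and at its second probe set (-0.27, adjusted p = 0.052). Lbp was also lost without Rs632 with 1 µM (-0.39, adjusted p = 0.091), and with 10 µM without Rs632 (-0.42, adjusted p = 0.070) or Rs627 (-0.41, adjusted p = 0.051). The blocked model called 5 lower with 0.1 µM (18.4% of all genes lower in that model), adding Icam1 and A2m. It called 6 lower with 1 µM (34.6%) and with 10 µM (38.4%), adding A2m and Orm1. Crp was then higher with 1 µM (0.22, adjusted p = 0.050), beside 15.5% of all genes.

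The slope over concentration, in log2 units per 10-fold, was -0.48 ± 0.05 for Cebpd (adjusted p = 2.3e-12, limma), -0.20 ± 0.03 for Icam1 (adjusted p = 1.21e-07), -0.12 ± 0.03 for Lbp (adjusted p = 0.00018), -0.11 ± 0.01 for Stat3 (adjusted p = 1.25e-09) and -0.02 ± 0.01 for Orm1 (adjusted p = 0.022). These 5 of 9 stood beside 29% of all genes with a falling slope. The Orm1 slope was lost without Rs627, Rs628 or Rs631 (adjusted p from 0.086 to 0.16) and under quantile normalization (-0.012, adjusted p = 0.059). A2m had a slope of -0.15 (adjusted p = 0.26), called only in the blocked model (-0.17, adjusted p = 5.17e-06), where 38.7% of all genes had a falling slope. The slope of Cebpb was 0.17 ± 0.02 (adjusted p = 1.18e-14), beside 14.7% of all genes with a rising slope. Between 10 and 1 µM none of the 9 differed over the times, nor did any of all genes (0%), and none of the 9 had an unadjusted p under 0.05. The differences ran from -0.26 ± 0.23 for Cebpd to 0.10 ± 0.07 for Cebpb, which does not show that the concentrations act alike.

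The change at 72 h minus that at 2 h was lower for 1 of the 9 with 1 µM (Icam1), beside 4.26% of all genes, and for 2 of the 9 with 10 µM (Icam1 and Lbp), beside 6.16%. Blocked on the rat it was 3 at each concentration, Lbp and Stat3 being added with 1 µM (10.2% of all genes in that model) and Stat3 with 10 µM (12.3%). Time in culture without the agonist was tested at 24 and 72 h against 2 h, and moved none of the 9 past the threshold. The 6 and 12 h cultures were not tested against those at 2 h. Icam1 averaged 7.92 ± 0.13 at 2 h (SD, n = 3) and 8.64 ± 0.25 at 6 h (SD, n = 4) with 0 µM. At 0 µM, none was called at 24 h against 2 h (1.41% of all genes in either direction) or at 72 h against 2 h (3.4%), with 0 and 1 of the 9 at an unadjusted p under 0.05. In the blocked model none was called either, and 3 of the 9 had an unadjusted p under 0.05 at 72 h (limma). There 12.5% of all genes were called lower and 0.441% higher. Cebpd averaged 7.25 ± 0.45 at 72 h (SD, n = 4) and 7.95 ± 0.72 at 2 h (SD, n = 3), a difference of -0.70 ± 0.51.

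Other genes of the same pathways, from lists chosen with results of these data known, were read at 10 µM and 72 h. There 15.6% of all genes were lower and 12.5% higher. Of 18 tested genes of other positive acute phase proteins, 8 were lower and none higher (median -0.85, all genes -0.04). The blocked model called 13 lower and 1 higher, beside 24% lower and 17.1% higher of all genes. The 4 with the smallest p were Serpina1, the gene of the protease inhibitor α1-antitrypsin (2.21-fold lower, adjusted p = 4.00e-11, limma), Itih3, that of an inter-α-trypsin inhibitor heavy chain (1.30-fold lower), C3, the central complement component (1.58-fold lower), and Hpx, that of haem-binding hemopexin (1.42-fold lower). Of 9 tested genes of negative acute phase proteins, which fall in inflammation, 5 were lower and 1 was higher (2 higher in the blocked model). Ahsg, the gene of fetuin-A, was 4.63-fold lower (10.49 with 10 µM against 12.70 with 0 µM), and Cyp2c11, a male-specific cytochrome P450 of the rat, was at least 24.7-fold lower. Ttr, the gene of transthyretin, was 1.28-fold lower, and Serpina6, that of corticosteroid-binding globulin, was at least 4.06-fold higher. Genes that inflammation raises and genes that it lowers were thus both found among the falls.

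The next counts also stand beside 15.6% lower and 12.5% higher of all genes, and 24% and 17.1% in the blocked model. Of 10 tested genes of the interleukin-6 receptor, JAK and SOCS list 2 were lower and none higher with 10 µM at 72 h (median -0.30). They were Jak1 (-0.40, adjusted p = 3.78e-06, limma) and Il6st, the gene of gp130 (-0.39, adjusted p = 0.032). In the blocked model 4 were lower. Of 14 tested genes of the NF-κB pathway 5 were lower and 3 higher (median -0.31), and 6 and 4 in the blocked model. Nfkb2, which encodes the p100 subunit, was lower (-1.54, at least 1.76-fold, adjusted p = 3.37e-09). The kinase genes Chuk and Irak1 and the adaptor gene Myd88 were higher, by 1.56-, 1.30- and 1.64-fold. Of 10 tested genes of the C/EBP family and related liver factors 4 were lower and 1 higher (2 higher in the blocked model). Foxa2, a liver transcription factor gene, was 1.53-fold lower, and Jun, part of the AP-1 factor, was 1.68-fold lower. Junb was under the floor in all 10 µM arrays and in 3 of 4 with 0 µM, so its call rested on values near the floor. Cebpg, which encodes a C/EBP partner, was higher (0.41, adjusted p = 1.57e-05).

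Of 7 tested genes of chemokines, cytokines and adhesion molecules 1 was lower and 1 higher (median -0.78), beside 15.6% lower and 12.5% higher of all genes. With the rat as a block 3 were lower, beside 24% of all genes. Cxcl1, a neutrophil attractant, was at least 5.33-fold lower (adjusted p = 0.0012, limma), and Cxcl12, which attracts lymphocytes and stem cells, was at least 11.9-fold higher (adjusted p = 1.34e-09).

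Markers of other liver cells were read beside these values. Their calls stand beside 15.6% lower and 12.5% higher of all genes, and 24% and 17.1% in the blocked model. The summed level of 11 measured macrophage markers, on the log2 scale, was 9.78 to 10.44 with 10 µM and 9.91 to 10.57 with 0 µM at 72 h. Of these 3 were tested, Lyz2 being 5.31-fold lower and Cd14 1.68-fold higher with 10 µM. Cd163, Clec4f, Adgre1, Ptprc, C1qa, C1qb, C1qc and Csf1r were under the floor in all 100 arrays. Cd14 and Lyz2 had by far the highest medians over all arrays (9.32 and 9.15). Since they moved in opposite directions, a steady sum does not show a steady macrophage content. All 6 measured endothelial markers were under the floor in all arrays. For 8 stellate cell markers the summed level was 8.13 to 8.51 with 10 µM and 8.32 to 11.44 with 0 µM, and 2 of 5 tested were lower (Acta2, at least 1.59-fold, and Col1a2, at least 1.24-fold). Tagln (-2.41, adjusted p = 0.22, without the rat) was called lower in the blocked model (adjusted p = 0.00030). The 5 bile duct markers summed to 9.44 to 10.31 with 10 µM and 9.84 to 11.31 with 0 µM, with none of 4 tested called without the rat. This sum was mostly Epcam, whose median over all arrays was 10.28, while the others had medians under the floor. Epcam (-0.75, adjusted p = 0.10, without the rat) was called lower in the blocked model (adjusted p = 1.27e-08). The 3 neutrophil markers summed to 5.11 to 5.64 with 10 µM and 4.92 to 5.36 with 0 µM. Hepatocyte markers, 10 measured, summed to 15.27 to 15.44 with 10 µM and 15.30 to 15.43 with 0 µM, 4 being higher and 2 lower (5 and 2 blocked). The 3′ to 5′ difference of actin probe sets, a measure of RNA integrity, averaged 1.90 ± 0.13 with 10 µM (SD, n = 3), 1.97 ± 0.15 with 1 µM (SD, n = 4) and 1.66 ± 0.18 with 0 µM (SD, n = 4) at 72 h. The part of cell make-up and RNA quality in the changes was not tested.

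Over the 30 group means the tested genes most like each member, by Pearson's r, are given as a description, since the means share rats and arrays. Lbp was closest to Tagln2 (0.975), Ifitm3 (0.972) and Kdelr3 (0.970), and Stat3 to Rragc (0.970), Dbndd2 and Cav2 (0.967 each). A2m followed Anxa8 (0.965), Icam1 Nostrin (0.959) and Cebpd Nhlrc2 (0.956), and Cebpb followed Unc5b (0.925). Orm1 was closest to Lamtor5 (0.940) and Crp to Azgp1 (0.863). Hp had no gene closer than Rida (0.759). Among the members Stat3 and Icam1 had an r of 0.897, A2m and Lbp 0.898, and Cebpd and Cebpb -0.79.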

How the data were processed

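Total RNA was amplified with a 3′ expression kit and hybridised to Affymetrix rat arrays, per the labels' protocols. The authors deposited 1 log2 intensity for each probe set on each array. Per the submitters' processing notes, the tools were Partek and GCRMA, and their versions and roles are not given in the sources used here. The values were used as deposited (array medians 4.13 to 4.46). Arrays have no read depth, so precision is limited by how many there are.

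Of 31139 probe sets 19069 had exactly 1 symbol in the platform annotation, and the brightest per gene was kept. Genes with a log2 value above 5, taken as the floor, in at least 3 arrays were tested. Where some or all arrays of a group were under the floor, the fold is the one with values under 5 set to 5, printed as "at least". A model of 30 group means was fitted with limma 3.58.1 in R 4.3.3 (70 residual degrees of freedom, Benjamini-Hochberg adjustment over 8843 genes per comparison), and ± after a change is its standard error. The fit without the rat was checked on simulated data with independent noise in each array. These data held no rat effect, so the check does not cover differences between rats. The members, the gene lists and the rule for naming genes (per list at most 4, by p, among those called, and the 3 most alike genes) were chosen with earlier results of these data known.

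The labels call Rs627 and the others biological replicates, and each is taken here as 1 rat. They pair the arrays: deviations from group means correlated with a median r of 0.62 within a rat (lowest rat 0.519) and -0.22 between rats. The fit without the rat is the main one, and the fit with the rat as a replicate block is printed where it changes a call of a member, and as counts for the other lists. Epcam and Tagln were named after their values were seen. The alternatives were the block, the filter, the floor, the normalization, the probe set, a minimum fold, single times, and leaving out rats or doubtful arrays. Nothing says that cultures of a rat came from separate platings. Promoter windows are those of RefSeq for GRCr8.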

Additional observations from a re-analysis of the deposited data

Results flagged for a closer look

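A gap of 1 culture from the others of its group was tested in 120 groups of 4 over the 10 genes (Dixon's test at 95%), and 12 were flagged, where chance flags about 1 in 20. The same 4 rats recur in these groups, so the tests are not independent and that rate is only a rough guide. Of the 12, 5 were A2m in Rs631, always the lowest: 10.68 with 0.1 µM and 10.28 with 10 µM at 2 h, 9.80 with 1 µM at 24 h, and 10.13 with 0.001 µM and 8.62 with 0.01 µM at 72 h. Stat3 was lowest in Rs628 with 1 µM at 24 h (8.90), and Lbp was lowest in Rs631 with 1 µM at 6 h (8.15). Hp was lowest at 72 h in Rs627 with 0 µM (13.10) and in Rs628 with 1 µM (13.17), and Orm1 was highest in Rs632 with 1 µM at 72 h (13.22). Socs3 was lowest in Rs631 with 10 µM at 2 h (3.13) and in Rs628 with 0.01 µM at 72 h (2.84), both under the floor.

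The change at 72 h differed from that at 2 h by the test of the difference itself for Icam1 with 1 µM (-1.53) and 10 µM (-1.81), and for Lbp with 10 µM (-1.16).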

How the results depend on the processing

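Of 51 calls of single genes in the comparisons made, re-read 856 times under 18 alternative settings where these gave a value, 748 stayed on the same side of the threshold with the same sign, 108 kept the sign and lost the call, and 0 reversed. The minimum fold was not applied to the slope, where it has no meaning.

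With the rat as a replicate block, members lower numbered 1 with 1 µM at 6 h, 2 with 1 µM at 12 h, 1 with 10 µM at 2 h, 2 with 10 µM at 6 h, 6 with 10 µM at 24 h, 5 with 0.1 µM over the times, 3 with 0.1 µM at 24 h and 4 at 72 h (0, 1, 0, 1, 3, 3, 0 and 0 without it), and the difference between 72 and 2 h with 1 µM held 3 (1 without). The block ended no call of a member, and the calls it added are given with their genes. Fitting single times alone gave 0 with 1 µM at 12 h, 2 with 1 µM at 24 h, 0 with 10 µM at 6 h and 0 with 10 µM at 12 h, against 1, 4, 1 and 2, and ended the 12 h calls of Cebpd and Stat3 and the 24 h calls of Icam1 and Lbp (adjusted p from 0.070 to 0.11). Quantile normalization gave 2 with 1 µM at 24 h. With 10 µM at 6 h there were 0 without a filter, 0 with median centring and 0 with second probe sets, and with 10 µM at 12 h 1 with second probe sets. A minimum of 1.5-fold gave 1 with 10 µM at 12 h, 1 with 0.1 µM over the times, and 2 with 1 µM and 2 with 10 µM over the times. Without the 5 low-signal arrays there were 2 with 1 µM at 24 h and 0 with 10 µM at 6 h. Without arrays at repeated positions there were 2 with 1 µM at 24 h, 0 with 10 µM at 6 h, 1 with 10 µM at 12 h, and 3 and 0 for the difference between 72 and 2 h with 1 and 10 µM. Without arrays whose label ends in 2 there were 1 with 10 µM at 12 h and 1 for the difference with 10 µM, and without the 12 h 0 µM arrays of Rs627 and Rs628 0 with 10 µM at 12 h. Leaving out each rat in turn gave 0 to 1 with 1 µM at 12 h, 2 to 4 with 1 µM at 24 h, 0 to 1 with 10 µM at 6 h, 0 to 2 at 12 h and 1 to 4 at 24 h, 1 to 4 with 0.1 µM over the times, and for the difference 0 to 1 with 1 µM and 1 to 2 with 10 µM. Beyond the fewer arrays in the settings that leave some out, the cause was not tested.

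Quantile normalization gave 59.9% lower among all calls with 1 µM at 24 h, against 76.2% as deposited, and an all-gene median change of -0.07, against -0.23. Values under 5 and near the top of the scale (Socs3, Orm1, Hp) limit what these arrays can show.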
